A study of Strongylocentrotus purpuratus with 10 samples.

Results

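One-to-one elements are candidate transcriptional regulatory elements of the purple sea urchin, *Strongylocentrotus purpuratus*, that were called once in 12 h embryos and once in 20 h embryos. They were chosen by the overlap of the peak coordinates: a 12 h peak shared at least 1 bp with exactly 1 peak of the 20 h list, and that 20 h peak overlapped no other 12 h peak. The rule found 16946 pairs on 2881 scaffolds of genome version 3.1. The pairs held 38.6% of the 43912 peaks listed at 12 h (95% Wilson interval 38.1 to 39%) and 29.9% of the 56753 peaks listed at 20 h (29.5 to 30.2%). With peaks less than 500 bp apart merged first, the shares were 59.1% and 47.2%. Since the pairs were selected on overlap, their overlap and the limits on their shifts are descriptions.

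Transcriptional regulatory elements comprise promoters, where transcription of genes starts, and distal enhancers and silencers, which control promoters from a distance. Active elements commonly start short, unstable RNAs on both strands. PRO-seq (precision nuclear run-on sequencing) records such nascent RNA by labelling its 3′ end in isolated nuclei while the polymerase is engaged, and dREG recognises from the shape of that signal the places where an element is likely to be active.

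PRO-seq was performed on nuclei of whole embryos reared at 15 °C from different batches of wild animals, at 2 ages and with no treatment named. The labels give 4 libraries of 12 h embryos, in 3 biological replicates, and 6 libraries of 20 h embryos, in 4 biological replicates, and name both ages hatching blastula. The peaks were called on merged reads, so each age had 1 list. The comparison asks how the same candidate element was called at an earlier and a later blastula age.

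Replicate error could therefore not be estimated, and no test between the ages could be made. The lists carry no depth per library or peak, and the sequencing described for 20 h embryos was deeper than for 12 h embryos, so age, depth and embryo batch cannot be told apart. The intervals given cover counting error alone, as if each peak were independent of its neighbours. In whole embryos, fewer cells using an element and less transcription per cell cannot be told apart either. A probability of at least 0.95 was listed for every peak. All edges lay on a 10 bp grid.

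By their medians the pairs were wide and well-scored elements within each list, although the regions that had been split or merged between the ages were scored better still. The paired peaks covered 7.09 Mb at 12 h and 6.75 Mb at 20 h. At 12 h their median width was 400 bp (quartiles 320 and 500), which compares with 380 bp at 20 h (300 and 480). Other shared peaks, which overlapped more than 1 peak or whose partner did, numbered 10617 at 12 h with a median of 420 bp and 13059 at 20 h with a median of 340 bp. Peaks without an overlap in the other list had a median of 340 bp at both ages. These numbered 16349 at 12 h and 26748 at 20 h.

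In median score the pairs stood between the other kinds of peak. The score is given here as 1 − probability, which is lower for a more certain call. Over the pairs its median was 6e-05 in the 12 h list, and in the 20 h list it was 4.74e-05. For the other shared peaks the medians were 8.47e-06 and 1.87e-05, and for peaks without an overlap 0.00205 and 0.000995. This order was the same at both ages. A probability of exactly 1 was listed for 13.1% of the pairs at 12 h and 13.3% at 20 h, against 16% of the whole 12 h list and 15% of the whole 20 h list. For the other shared peaks the share was 13.6% and 12.7%, and for peaks without an overlap 20.6% and 17.2%. The order of the medians was therefore not the order of these shares.

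A typical pair was a little narrower at 20 h, against a wide spread in both directions. The median change of width was -20 bp (quartiles -100 and 60), and the mean change was -20.19 ± 142.1 bp (SD over pairs, n = 16946). The lists themselves differed in the same direction: the median over every listed peak fell from 380 bp in the younger embryos to 350 bp in the older. Peaks without an overlap kept a median of 340 bp. Whether the change in the pairs is separate from this difference between the lists was not tested. Of the pairs, 9217 were narrower at 20 h (54.4%, interval 53.6 to 55.1%), 7060 were wider (41.7%, 40.9 to 42.4%) and 669 had the same width (3.95%). Changes of over 100 bp made up 23.4% of the pairs in the narrower direction (3961 pairs) and 15% in the wider direction (2538 pairs). The spread of the change was thus several times larger than its median, and both directions were common. On the 173 scaffolds with at least 20 pairs, the median change was below 0 on 121, above 0 on 39 and 0 on 13, with a range from -110 to 70 bp.

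Width was only partly kept from one age to the next. Over the 16946 pairs, Pearson's r between the widths was 0.483 and Spearman's rho was 0.49. All points come from the same pooled lists. Pairs that were wide at the age used to sort them were narrower at the other age, whichever age was used. Pairs of over 700 bp at 12 h (652 pairs) went from a median of 770 bp to 550 bp, and 10.1% of them were wider at 20 h. Pairs of over 700 bp at 20 h (528 pairs) had come from a median of 580 bp at 12 h to 770 bp. Pairs of at most 200 bp at 12 h (445 pairs) went from a median of 180 bp to 220 bp, and 78% of them were wider at 20 h. Since this return towards the middle was seen from both ages, the class of width at one age is no guide to a direction in time.

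**Figure D1:**
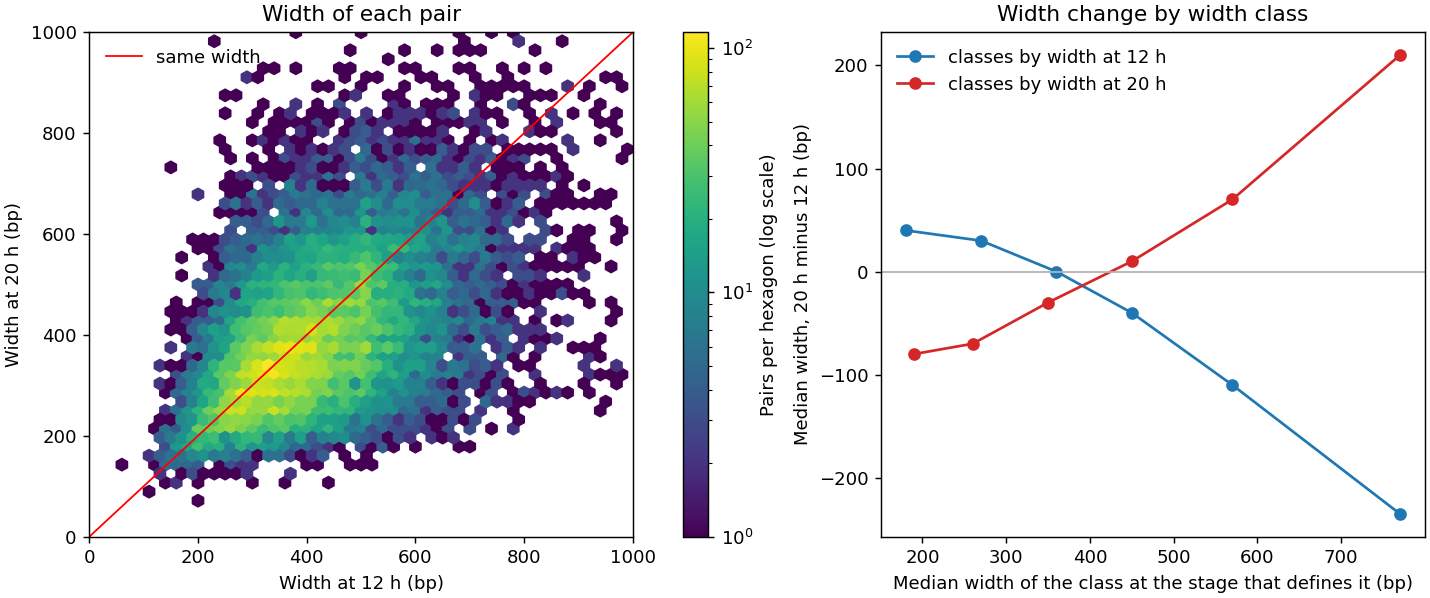
Left, width at 20 h against width at 12 h for each pair in bp, with the number of pairs per hexagon on a log colour scale and the line of equal width in red; 47 pairs with a width above 1000 bp are outside the axes. Right, median width change (20 h minus 12 h, bp) for classes of width set at 12 h (blue) or at 20 h (red), which falls from 40 to -235 bp in the first case and rises from -80 to 210 bp in the second.

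The centres of a pair lay close together and had no preferred direction of shift. The median distance between the centres of a pair was 35 bp (quartiles 15 and 70). With peaks 20 bp apart joined first the median was 55 bp, and with peaks less than 500 bp apart merged it was 65 bp. The centre lay within 50 bp in 10774 pairs (63.6%) and over 100 bp away in 2298 (13.6%). It moved to higher coordinates in 8124 pairs and to lower coordinates in 8099, with a median signed shift of 0 bp. In 16140 pairs (95.2%) the centre of each peak lay inside the other peak. The bases in both peaks made up a median of 75% of the bases in either (quartiles 62.79 and 85.71%). At the median, the 20 h peak covered 88.24% of the 12 h peak, and the 12 h peak covered 93.48% of the 20 h peak.

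The edges moved inward more often than outward, with little correlation between the shifts of the low and the high edge. The low-coordinate edge shifted by a median of 10 bp (quartiles -30 and 50) and the high-coordinate edge by -10 bp (-50 and 30), which is inward in both cases. The absolute shift had a median of 40 bp at either edge. Over the pairs, the shifts of the low and the high edge had a Pearson r of 0.134 and a Spearman rho of 0.00721. The 20 h peak lay inside the 12 h peak, shared edges included, in 5914 pairs (34.9%), and the 12 h peak inside the 20 h peak in 4035 (23.8%). Both edges moved to higher coordinates in 3363 pairs and to lower coordinates in 3492. Both edges stayed within 50 bp in 5758 pairs (34%), and 142 pairs (0.838%) had the same start and end at both ages.

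Edges facing another peak 20 bp away had small shifts, which the pairing rule limits in at least 1 direction. A gap of exactly 20 bp to the next peak of the same list is the smallest that occurs in these lists, and 32.6% of the paired peaks at 12 h and 26.6% at 20 h had such a neighbour. A larger move than 20 bp, outward where the gap was listed at 12 h or inward where it was listed at 20 h, would overlap a second peak and end the pair. The shifts of these edges are therefore given as a description of the members, from which nothing is read about the elements. An edge facing such a gap at both ages (3598 edges) shifted by a median of 10 bp, and 70.3% of these edges stayed within 10 bp. An edge facing the gap at neither age (26675 edges) shifted by a median of 60 bp, and 16.5% stayed within 10 bp. Where the gap was listed at 12 h alone (2372 edges), 79.2% of the edges moved inward, and where it was listed at 20 h alone (1247 edges), 72.3% moved outward, the directions that the rule leaves free.

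**Figure D2:**
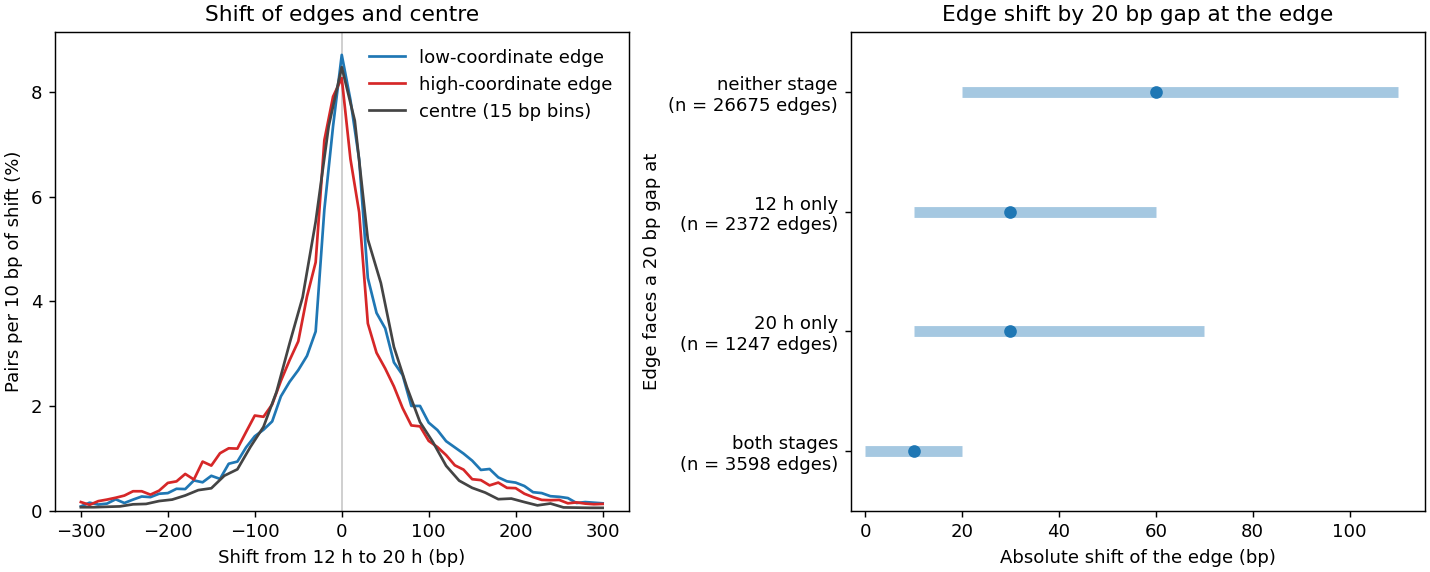
Left, distribution of the shift from 12 h to 20 h in bp for the low edge, the high edge and the centre of the 16946 pairs, as percent of pairs per 10 bp of shift; 675 pairs have an edge shift beyond the 300 bp axis limit. Right, median (point) and quartiles (bar) of the absolute edge shift by whether the edge faces a gap of 20 bp at neither age, 1 age or both, with medians of 60, 30, 30 and 10 bp; the pairing rule limits shifts at a 20 bp gap to 20 bp in the direction that would reach a second peak.

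The pairs at the ends of the distributions were named by rule. The widest pair by mean width lay on Scaffold15, where the 12 h peak covered 997511 to 998590 (1080 bp) and the 20 h peak 997461 to 998710 (1250 bp). A pair on Scaffold114 differed by 10 bp in its low edge alone, with 498581 to 499690 called in the younger and 498571 to 499690 in the older embryos. Both pairs had a probability of exactly 1 at both ages. The third was on Scaffold1251, where a 12 h peak at 36391 to 38310 (1920 bp) was met by a 20 h peak of 270 bp at 38041 to 38310. It was also the pair that narrowed most, and its 1 − probability went from 0 to 0.025.

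A pair on Scaffold1006 went from 1530 bp at 90751 to 92280 to 330 bp at 91991 to 92320, and a pair on Scaffold2322 from 1220 bp at 45511 to 46730 to 370 bp at 45431 to 45800. In the other direction, a pair on Scaffold566 went from 280 bp at 614841 to 615120 to 1380 bp at 614771 to 616150. A pair on Scaffold1078 went from 480 bp at 191221 to 191700 to 1490 bp at 191241 to 192730, and a pair on Scaffold959 from 410 bp at 112291 to 112700 to 1310 bp at 112271 to 113580. These 3 pairs kept their low edge within 70 bp, so nearly all of the gain lay on the high side.

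The largest shift of the centre to higher coordinates was 835 bp, on Scaffold3567, from 471 to 970 at 12 h to 901 to 2210 at 20 h, with 70 bp shared. The pairs on Scaffold1251 (825 bp) and Scaffold1006 (640 bp) followed. The largest shifts to lower coordinates were -515 bp on Scaffold37, from 997541 to 998230 to 997131 to 997610, -510 bp on Scaffold90, from 399551 to 400520 to 399371 to 399680, and -505 bp on Scaffold2322. The bases in both peaks made up 4.02 to 22.3% of the bases in either peak in these 6 pairs. On Scaffold1251 the 20 h peak lay wholly inside the 12 h peak. On Scaffold1006 290 of its 330 bp did, and on Scaffold2322 290 of its 370 bp, so the low share there goes with the narrower 20 h peak. The pairs on Scaffold3567, Scaffold37 and Scaffold90 shared 70, 70 and 130 bp. In those, 2 adjoining elements cannot be told apart from 1 that moved.

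The widest pairs with both edges unmoved lay on Scaffold113 at 783881 to 784600 (720 bp), on Scaffold1431 at 60031 to 60690 (660 bp) and on Scaffold3006 at 43921 to 44560 (640 bp). Their highest 1 − probability at either age was 1.03e-07. On Scaffold1431 and Scaffold3006 another peak lay 20 bp away, whereas on Scaffold113 the nearest was 1140 bp away.

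Near the limit of the rule, 85 pairs shared 10 to 50 bp, with a median centre distance of 325 bp. Just outside it, 114 couples of peaks without an overlap lay 0 to 50 bp apart, with a median centre distance of 370 bp. Median widths were 340 bp at both ages inside the limit, and 340 and 320 bp outside it. For the 12 h peaks the median 1 − probability was 0.0077 inside and 0.0032 outside, far above that of all pairs.

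The score of an element at 12 h was a weak guide to its score at 20 h. Spearman's rho of the probability between the ages was 0.162 over the 16946 pairs. Without the pairs listed at exactly 1 at either age it was 0.32 (12895 pairs). The probability was higher at 20 h in 8247 pairs (48.7%), lower in 8256 (48.7%) and the same in 443. Even a probability of exactly 1 was seldom repeated: 435 pairs had it at both ages, 1789 at 12 h alone and 1827 at 20 h alone. Of the pairs at exactly 1 at 12 h, 19.6% were at exactly 1 at 20 h (interval 18 to 21.3%), against 13.3% of all pairs, and 18.3% were among the weakest calls at 20 h, with 1 − probability above 0.01.

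The value of exactly 1 behaved apart from the values next to it. Pairs at exactly 1 at 12 h had a median width of 360 bp at 12 h, narrower than the 540 bp of the next class (1 − probability up to 1e-12, 569 pairs) and near the 330 bp of the weakest class (above 0.01, 2994 pairs). Their median 1 − probability at 20 h was 5.27e-05, against 1.36e-09 for the next class. The same held with the classes set at 20 h, where pairs at exactly 1 had a median width of 340 bp at 20 h and the next class 550 bp. Ranks that place exactly 1 at the top therefore mix narrow with wide elements.

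Width and score changed together. Among the 12895 pairs below exactly 1 at both ages, width followed −log10(1 − probability) within each age, with a Spearman rho of 0.446 at 12 h and 0.55 at 20 h. The change of width followed the change of −log10(1 − probability) with a rho of 0.468. Where the latter fell by more than 3 units (2110 pairs) the median width went from 470 bp to 370 bp, and 15.7% of the pairs were wider at 20 h. Where it stayed within 1 unit (4240 pairs) the medians were 370 bp at 12 h and 340 bp later. Where it rose by more than 3 units (2291 pairs) they were 410 and 480 bp, and 72.3% of the pairs were wider at 20 h. Both measures come from the same dREG call, so they are not separate readings of an element.

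**Figure D3:**
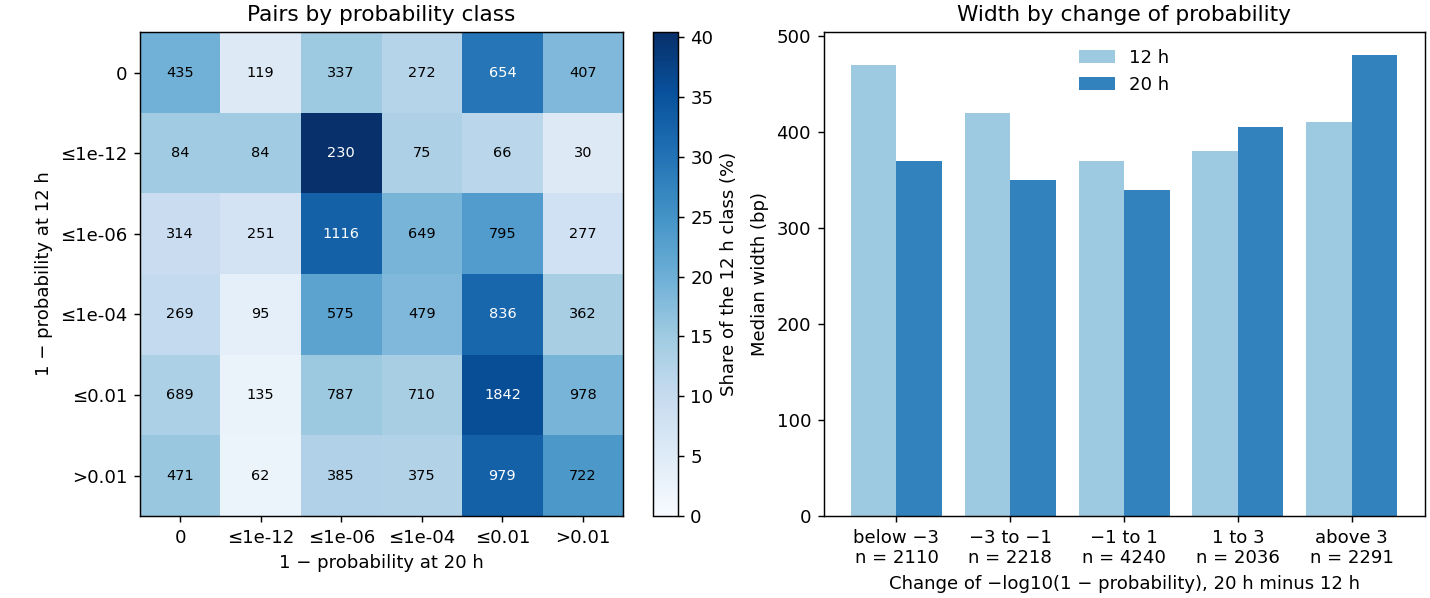
Left, number of pairs by class of 1 − probability at 12 h (rows) and at 20 h (columns), shaded by the share of the 12 h class in percent; 435 pairs are at exactly 1 (1 − probability of 0) at both ages. Right, median width in bp at 12 h (light) and 20 h (dark) for classes of the change of −log10(1 − probability), with the pairs listed at exactly 1 left out; the wider age is 12 h on the left and 20 h on the right.

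Along the scaffolds most neighbouring pairs had other peaks between them. Of 14065 steps from a pair to the next pair on the same scaffold, 5140 (36.5%) had no other peak between in either list. In 2235 steps (15.9%) only 20 h peaks lay between, in 1267 (9.01%) only 12 h peaks, and in 5423 (38.6%) peaks of both, whether or not those overlapped each other. The share of steps with no peak between dropped with distance, from 99.8% at up to 500 bp to 13.9% beyond 10 kb. A short step leaves little room for another peak and a longer one leaves more, so a drop follows from distance alone. The centre of the nearest other pair lay a median of 6500 bp away (quartiles 745 and 23720, 16141 pairs with another pair on the scaffold).

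Where pairs followed each other directly, the distance between them changed by no more than the shifts of their centres allow, which the overlap rule limits. The median centre to centre distance, 1820 bp at 12 h, was 1812 bp at 20 h, and the median absolute change was 55 bp (quartiles 25 and 100, n = 5140). Of these steps, 1310 (25.5%) were 20 bp apart, edge to edge, at both ages, 482 at 12 h alone and 111 at 20 h alone. The width changes of neighbouring pairs showed little relation to each other: Spearman's rho was 0.0196 at up to 500 bp, and the highest value of any distance class was 0.112, between 2 and 5 kb.

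**Figure D4:**
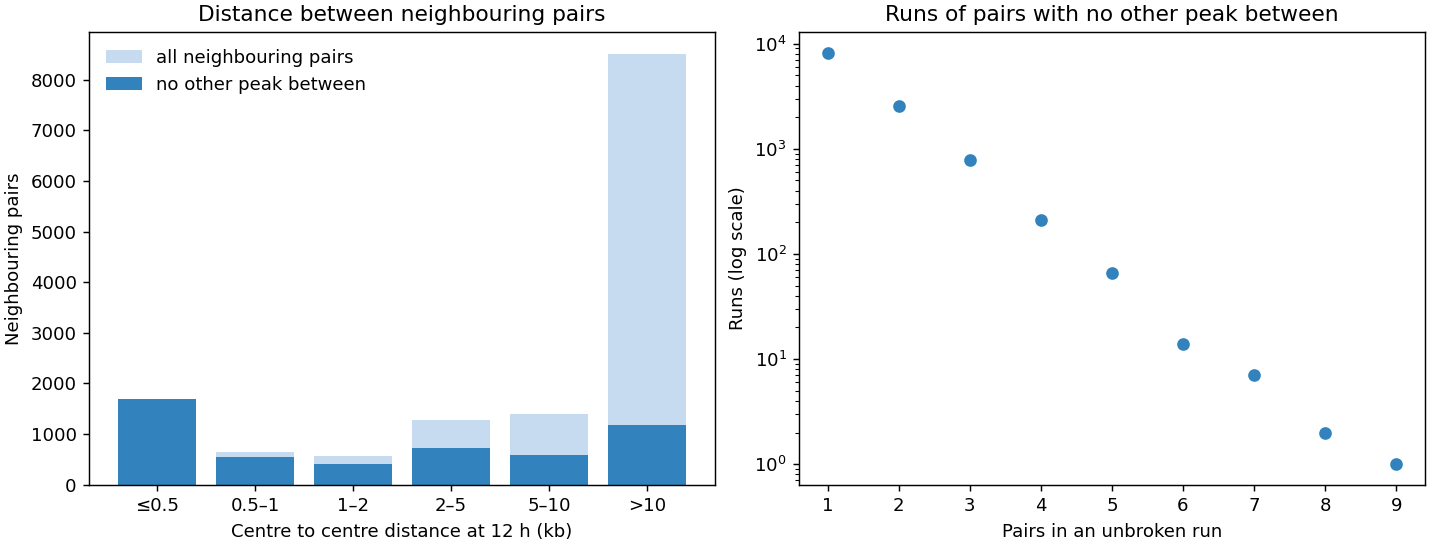
Left, number of steps between neighbouring pairs by centre to centre distance at 12 h in kb, all steps (light) and those with no other peak between (dark); 1684 of the 1687 steps of up to 0.5 kb have none. Right, number of unbroken runs on a log scale by the number of pairs in the run, from 8184 single pairs to 1 run of 9.

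The longest runs of pairs unbroken by any other peak spanned 45290 to 171590 bp at 12 h. A run of 9 pairs lay on Scaffold969, where its outer edges were 116631 and 199510 at 12 h, and 116641 and 199570 at 20 h. Its centres shifted by at most 120 bp, and 3 of its pairs were wider at 20 h. Runs of 8 pairs lay on Scaffold838, from 316741 to 362030 at 12 h, and on Scaffold1117, from 228101 to 399690. There 2 and 3 pairs were wider at 20 h, and the largest shifts of a centre were 100 and 115 bp. All 3 runs held 20 bp gaps. Of all pairs, 48.3% stood alone, as runs of 1.

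Isolated pairs had a larger median loss of width than pairs in dense surroundings. Another peak of either list lay within 1 kb of 9455 pairs (55.8%), and none lay within 10 kb of 1879 (11.1%). The median change of width went from -10 bp in pairs with a peak within 20 bp (6618 pairs) through -20 bp at 1 to 5 kb (3831 pairs) to -40 bp beyond 10 kb. Edge shifts in the first of these classes are limited by the pairing rule. Between 20 bp and 1 kb the median change was also -10 bp. Beyond 10 kb the median 1 − probability went from 7.65e-05 at 12 h to 0.000273 at 20 h, so these calls were also less certain at 20 h. In pairs with a peak between 20 bp and 1 kb (2837 pairs) it went from 0.000368 to 4.15e-05, the opposite order.

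The 3 most isolated pairs were narrower at 20 h. On Scaffold1164 a pair with a 12 h peak at 306501 to 307020 and a 20 h peak at 306501 to 306850 was 268770 bp from the next peak, and its 1 − probability was 7.38e-05 and 0.0354. On Scaffold852 the pair went from 250731 to 251510 (780 bp) to 250831 to 251460 (630 bp). On Scaffold518 it went from 721871 to 722390 (520 bp) to 722081 to 722360 (280 bp).

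To place the pairs at known regulatory genes, they were set against fragments of genomic DNA around 37 developmental genes that had been assayed for enhancer activity and were picked mainly for sequence conservation. Only the positions and gene names of the fragments were used. The fragments held 133 peaks at 12 h (0.303% of that list) and 320 at 20 h (0.564%), and they overlapped 67 of the 16946 pairs (0.395%). At 12 h, 67 of the 133 peaks were one-to-one (50.4%, interval 42 to 58.7%, against 38.6% of the list) and 19 had no overlap at 20 h (14.3%, against 37.2%). At 20 h, 66 of the 320 peaks were one-to-one (20.6%, 16.6 to 25.4%, against 29.9% of the list) and 198 had no overlap at 12 h (61.9%, against 47.1%). In 1 pair, at *Ese* on Scaffold1386 (81601 to 81940 at 12 h, 81771 to 82250 at 20 h), the 12 h peak alone reached into a fragment.

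The pairs at these genes were wider at 20 h more often than not, unlike the pairs as a whole. No test was run on them. They were wider in 41 of 67 cases (61.2%, interval 49.2 to 72%), against 41.7% of all pairs, and wider by over 100 bp in 22 (32.8%), against 15%. A decrease of over 100 bp occurred in 10 (14.9%), against 23.4%. The median change of width was 40 bp (quartiles -30 and 135), from 410 to 430 bp, against -20 bp over all pairs, which had nearly the same median at 12 h (400 bp). The probability was higher at 20 h in 46 (68.7%, 56.8 to 78.5%), against 48.7% of all pairs. The median 1 − probability went from 0.00026 at 12 h to 5.5e-08 at 20 h. Over all pairs between 0.0001 and 0.01 at 12 h, the median at 20 h was 0.00023 and the median change of width was -20 bp. The pairs in fragments were not confined to this class at 12 h, where 10 were at exactly 1. Any part of the starting score was not tested. Pairs of one gene share a locus, and the 67 pairs fell on 28 genes, so the intervals, which treat pairs as independent, are too narrow. By gene, 14 had more wider than narrower pairs, 8 had more narrower pairs and 6 had equal numbers.

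**Figure D5:**
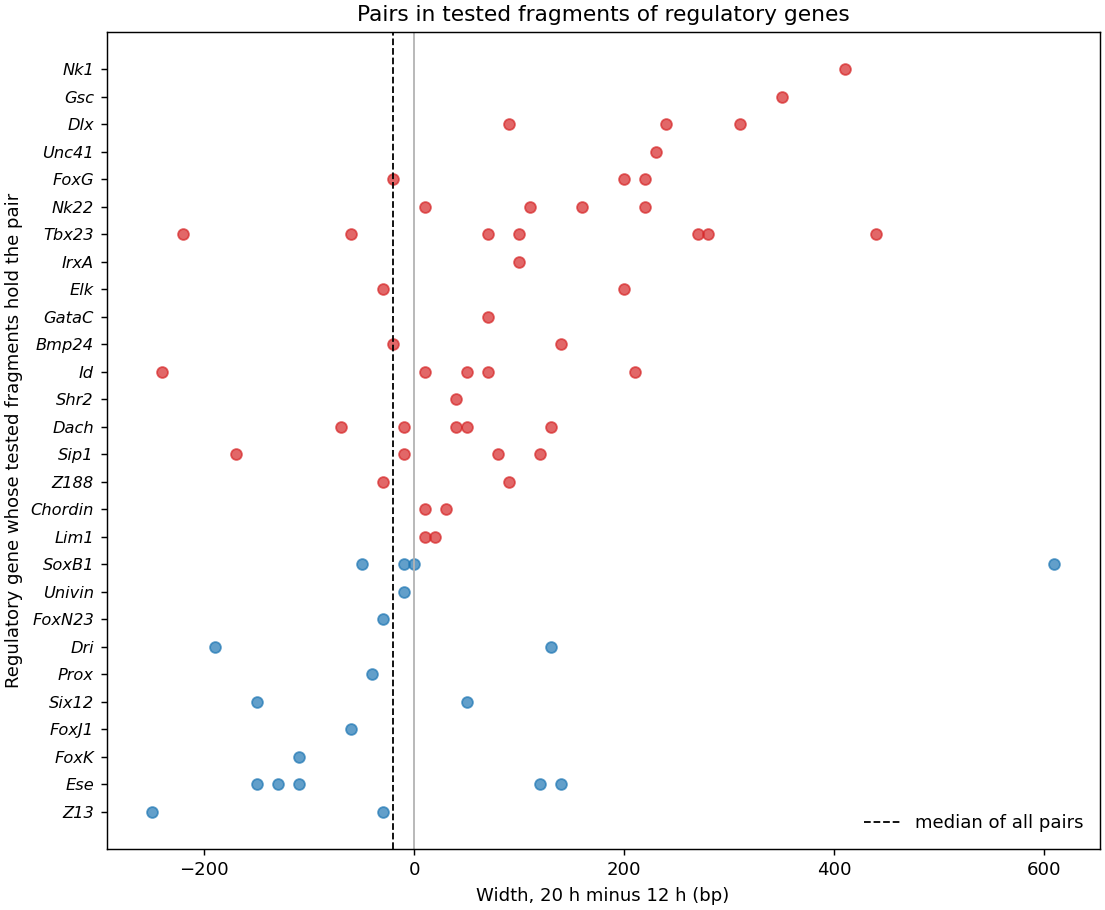
Change of width from 12 h to 20 h in bp for each of the 67 pairs in assayed fragments of 28 regulatory genes, 1 point per pair, with genes ordered by their median and coloured red where it is above 0 and blue where it is below 0; the dashed line is the median of all pairs (-20 bp). Points lie on both sides of 0, with 41 of 67 to the right of it.

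Among the genes of signalling, *Bmp24* and *Univin* encode ligands of the TGF-β superfamily, and *Chordin* encodes an extracellular antagonist of BMP ligands. Both *Chordin* pairs were wider at 20 h. The widest, on Scaffold1440, grew from 650 bp at 113381 to 114030 to 680 bp at 113381 to 114060. The widest *Bmp24* pair measured 510 and 490 bp, with 1 − probability of 1.7e-08 and 6.83e-12. The other *Bmp24* pair was wider at 20 h, but the bases in both peaks made up only 11.1% of the bases in either. There, adjoining elements cannot be told apart from 1 that moved. *Univin* had 1 pair, of 710 and 700 bp. The widest elements of these 3 genes were therefore nearly fixed in width.

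Homeobox genes encode DNA-binding regulators of territory and cell fate, and 14 of the 16 pairs grouped here were wider at 20 h. *Sip1*, which could also be placed in this family, was counted with the zinc finger genes and had 2 wider and 2 narrower pairs. All 3 *Dlx* pairs were wider at 20 h, the widest going from 370 bp at Scaffold119, 808231 to 808600, to 680 bp at 807981 to 808660, with 1 − probability of 0.0159 and 1.38e-12. All 4 *Nk22* pairs were wider, the widest going from 380 to 600 bp on Scaffold901. *Nk1* had 1 pair, on Scaffold1564, of 420 bp at 202021 to 202440 and 830 bp at 201941 to 202770. *Gsc*, the goosecoid gene, had 1 pair, on Scaffold468, of 250 bp at 359671 to 359920 and 600 bp at 359601 to 360200. Of these widest pairs, the high edge made the larger gain in *Nk22*, *Nk1* and *Gsc* and the low edge in *Dlx*.

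The single pairs of *Unc41* (350 and 580 bp) and *IrxA* (720 and 820 bp) were wider at 20 h as well. Both *Lim1* pairs were wider by 10 to 20 bp, and the widest measured 670 and 690 bp. *Six12* had 1 wider and 1 narrower pair, and the widest measured 410 and 460 bp. In its narrower pair the bases in both peaks made up only 2.74% of the bases in either. There, adjoining elements cannot be told apart from 1 that moved. The single pair of *Prox* was narrower, with 420 and 380 bp, although its 1 − probability fell from 0.01 to 5.47e-09. The 16 pairs belonged to 9 homeobox genes, with *Sip1* not counted, and *Prox* held none of the wider ones. The 14 wider of 16 compare with 61.2% wider over all pairs in fragments and 41.7% over all pairs. The probability was higher at 20 h in 13 of the 16, against 68.7% and 48.7%. Counts by family describe these loci and were not tested.

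The T-box gene *Tbx23*, which encodes a transcription factor, had more pairs than any other gene. Of its 7 pairs, 5 were wider and 2 narrower at 20 h. The widest lay on Scaffold364, where it covered 502861 to 503410 (550 bp) at 12 h, and 502771 to 503590 (820 bp) at 20 h, with 1 − probability of 6.99e-15 and 1.1e-14. Of the 21 peaks in its fragments at 20 h, 12 had no overlap at 12 h, against a share of 61.9% over all fragments. Of the 8 peaks there at 12 h, 0 had no overlap at 20 h, against 14.3% over all fragments. Other genes, *Nk22* and *Id* among them, also had 0 peaks listed at 12 h alone.

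*SoxB1*, a gene of the Sox family of HMG-box factors, held the pair that widened most among these genes. On Scaffold1358 it went from 500 bp at 254901 to 255400 to 1110 bp at 254781 to 255890, and its 1 − probability fell from 0.0143 to 2.14e-08. The other 3 *SoxB1* pairs changed by -50 to 0 bp. Among the *SoxB1* pairs, 1 alone was therefore wider at 20 h. Its fragments held 8 peaks at 12 h and 10 at 20 h, and the widths of those outside the pairs were not compared.

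The forkhead and Ets genes showed no common direction. *FoxG* had 2 wider pairs and 1 narrower, the widest of 360 and 580 bp. The single pairs of *FoxJ1* (490 and 430 bp), a gene of the programme for motile cilia, *FoxK* (500 and 390 bp) and *FoxN23* (300 and 270 bp) were narrower at 20 h. The Ets gene *Ese* had 2 wider and 3 narrower pairs, the widest of 690 and 540 bp, and its probability was higher at 20 h in 1 of 5. *Elk*, also of the Ets family, had 1 of each, the widest of 650 and 620 bp.

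Zinc finger genes were mixed too. *Sip1* had 2 wider and 2 narrower pairs, the widest of 580 and 570 bp, and *Z188* had 1 of each, the widest of 330 and 420 bp. The single *GataC* pair measured 460 and 530 bp. Both *Z13* pairs were narrower, the widest, on Scaffold2368, with 480 bp at 951 to 1430 and 230 bp at 1261 to 1490 and a probability of exactly 1 at both ages.

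Of the remaining genes, *Id*, which encodes an inhibitor of basic helix-loop-helix factors, had 4 wider of 5 pairs, the widest of 650 and 720 bp. *Dach*, the dachshund gene, had 3 wider of 5, the widest of 540 and 580 bp, and its probability was higher at 20 h in 5 of 5. *Dri*, an ARID-domain gene, had 1 pair of each direction, the widest of 770 and 900 bp. The single pair of *Shr2*, a nuclear receptor gene, measured 280 and 320 bp.

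No pair lay in the fragments of 9 genes. *Ecr* had no peak at either age, and *Atbf1*, *Fic*, *FoxO* and *Hnf1* had peaks at 20 h alone, 2 to 6 per gene. *FoxB*, *Myc*, *Nfe2* and *Not* had peaks at both ages. The 3 *Myc* peaks at 12 h had no overlap at 20 h, and its 1 peak at 20 h had none at 12 h. A fragment covers only a part of a locus, so these counts do not describe the genes as a whole.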

How the data were processed

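PRO-seq libraries of whole embryos were mapped by the authors to *S. purpuratus* genome version 3.1 with the proseq2.0 pipeline, reads of replicates were merged, and peaks were called with dREG. The versions of these tools and the threshold are not given in the sources used here. The deposited value of each peak is a fraction from 0 to 1, the probability given by dREG, and the deposited starts and ends are positions on scaffolds, printed here counted from 1. Fewer PRO-seq replicates are described in the methods than in the labels, and the libraries that entered each list are uncertain. Replicates appear in no value, and the depth per library is unknown here.

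Peaks of the lists were paired by overlap of at least 1 bp, after the pairing was tested on simulated peaks of known kinds. Width, shifts of edges and centre (20 h minus 12 h), shared bases and spacing were computed with Python 3.11.15, numpy 2.4.6, pandas 2.3.3, scipy 1.17.1 and matplotlib 3.10.9. Shares have 95% Wilson intervals. No test was run. A pair was assigned to a gene where either peak overlapped one of its assayed fragments. Pairs named in the text are the 3 at each end of the width, shift and isolation distributions, the 3 widest with unmoved edges, the 3 longest runs and the widest pair of each gene. The members, gene list and naming rule were chosen with earlier results of these data known. Alternatives changed the overlap, the probability limit, the joining of neighbours, the size of the 20 h list and the scaffolds used. No sequence is shown, since no genome of this version was used here.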

Additional observations from a re-analysis of the deposited data

How the results depend on the processing

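Of 63 values over 7 alternatives and 9 results, 29 stayed close to the main value, 34 moved and 0 reversed in sign. Only the median change of width and the rho of the probability could reverse, since the other results cannot be negative. Close means within the 95% interval of the main value or, for the number of pairs, within 1.5 times of it. The median change of width stayed at -20 or -10 bp and the number of pairs between 13129 and 23305. With a reciprocal overlap of at least 50%, pairs held 53.1% of 12 h and 41.1% of 20 h peaks, the median centre shift was 40 bp, the shared bases 73.3%, rho of the probability 0.228 and the share wider at 20 h 40.4%. With a probability of at least 0.99 the centre shift was 40 bp, the shared bases 76% and the share wider 40.4%. Joining peaks 20 bp apart gave 53.9% and 41.4% of the lists, 55 bp, 71.7%, a rho of 0.211 and 45% wider. Merging peaks less than 500 bp apart gave 59.1% and 47.2%, 65 bp, 70.6%, 0.203 and 46.2% wider, and 74.6% of 71 pairs in assayed fragments were wider. Without peaks at exactly 1 the values were 38.1% and 29.1% of the lists, 40 bp, a rho of 0.317 and 40.2% wider. With the 20 h list reduced to the number of 12 h peaks, pairs held 34.1% of each list, with 40 bp, a rho of 0.132 and 42.7% wider. When scaffolds needed 10 peaks or more at both ages, pairs held 39.9% of 12 h peaks and the shared bases were 75.6%. The share of pairs in assayed fragments wider at 20 h ranged from 52.7% with reciprocal overlap to 74.6%, and stayed above that of all pairs under each of the 7 alternatives. The alternatives for both shares of wider pairs were added after the data had been seen. No paired analysis was possible because each age has a single list of merged replicates, and for the same reason no replicate could be left out. Depth, which the lists do not give, limits every statement on which peaks were called at an age.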
